A study of Mustela putorius furo with 8 samples.

Results

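GATA3, TP63, TFAP2A, GRHL3, EHF, ELF3, KLF5 and SNAI2 are 8 genes for transcription factors of epithelial cells, and their levels were followed in cultured ferret pancreatic duct epithelium with and without CFTR. They were taken by symbol from the 27912 genes counted in each library. All 8 were present as 1 row each, and all 8 had a level of at least 5 UMIs per 1000000 UMIs of a library (CPM) on average over the libraries, as did 9427 genes in all. They were named by symbol and not by a level or a fold.

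These factors belong to separate branches of epithelial control. TP63 is the master factor of basal cells in stratified and pseudostratified epithelia and sustains their keratins and adhesion genes, and SNAI2 is a zinc finger repressor that basal cells share with cells passing towards a mesenchymal state. GRHL3, EHF and ELF3 act in surface and barrier-forming epithelial cells, KLF5 in proliferating and glandular epithelium, and GATA3 and TFAP2A in the luminal mammary gland, the urothelium, the skin and other ectodermal tissue. In the adult pancreas, duct cells are a simple epithelium that carries ELF3, EHF and KLF5, and TP63 is not a usual duct gene.

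Pancreatic ductal epithelial (PDE) cultures were derived from newborn ferrets of 2 genotypes, wild type (WT) and CFTR KO/KO (CF), the latter lacking the chloride and bicarbonate channel of cystic fibrosis. Cells of both genotypes had been passaged serially in PneumaCult medium on 804G-coated dishes and then polarized at an air-liquid interface (ALI), and single-cell libraries were made with the 10x droplet method at day 2, 5, 7 and 9 of ALI. Each of the 8 combinations of genotype and day gave 1 library, which pooled several donors, and no cell was assigned to a donor. No value therefore has a replicate error and no test between groups was made. Intervals below are 95% intervals of the UMI counts and cover counting error only, not the spread between animals or cultures.

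The libraries held between 1607 and 6224 retained cells and between 34735952 and 114585136 UMIs, with a median of 14949 to 23427 UMIs per cell. Any 2 libraries shared between 1 and 14 cell barcodes. CFTR itself, the targeted gene, stood at 6.57, 16.9, 15.9 and 29.5 CPM in the WT libraries at day 2, 5, 7 and 9 and at 2.50, 8.69, 11.1 and 11.4 CPM in the CF libraries. It was lower in CF at each day, although transcripts were still counted there, and gene counts do not show which part of the transcript they came from. Duct genes were abundant, with 15 of them summing to between 8732 and 12359 CPM. Endothelial genes were close to absent (6 genes, at most 0.259 CPM in sum, with CDH5, CLDN5 and TEK at 0), INS, GCG, PPY and NEUROD1 were at 0 in every library, and 8 immune genes summed to between 4.56 and 21.9 CPM. Of 11 genes of acinar cells 4 were in the files and summed to at most 0.212 CPM, so cells that carry an acinar class name lacked these genes. The 9 fibroblast and stellate genes summed to between 2.30 and 5.79 CPM in WT and between 1.57 and 34.6 CPM in CF.

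GATA3 was the member that differed most between the genotypes. This zinc finger factor, known from luminal mammary and urothelial cells, stood at 32.9, 62.8, 63.6 and 53.8 CPM in the WT libraries at day 2, 5, 7 and 9. In the CF libraries it stood at 114, 173, 191 and 195 CPM. Every CF library lay above every WT library, which held for GATA3 alone among the 8 and for 9.25% of the 9427 genes. The log2 difference, CF minus WT with 1 CPM added to each level, was 1.76, 1.45, 1.57 and 1.84 from day 2 to day 9. As plain ratios these are 3.46 (3.33 to 3.59), 2.76 (2.68 to 2.85), 3.00 (2.89 to 3.11) and 3.62 (3.50 to 3.75). Both genotypes had more GATA3 at day 9 than at day 2, by 0.69 on the log2 scale in WT and 0.77 in CF, and most of that step lay between day 2 and day 5 (0.91 and 0.61).

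**Figure D1:**
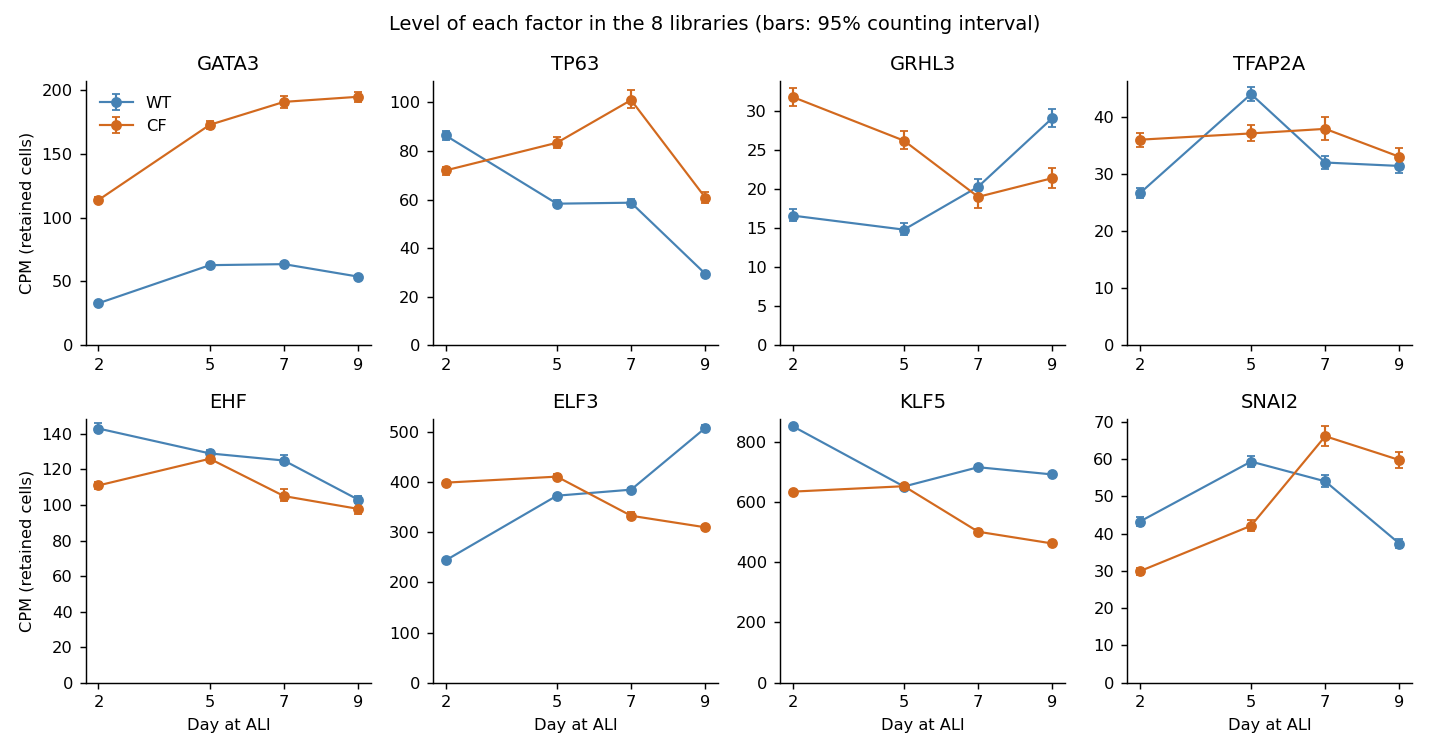
Level of each of the 8 factors in CPM (vertical axis, from 0) against the day at ALI (horizontal axis) in the WT libraries (blue) and the CF libraries (orange), with 1 library for each point and bars for the 95% counting interval. GATA3 lies between 114 and 195 CPM in CF and between 32.9 and 63.6 CPM in WT, while the lines of TP63, GRHL3, ELF3 and SNAI2 cross between day 2 and day 9.

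In WT TP63 was lower late in the course. It stood at 86.4, 58.3, 58.7 and 29.4 CPM at day 2, 5, 7 and 9, so the day 2 library was the highest and the day 9 library the lowest. In CF it stood at 72.0, 83.4, 101 and 60.8 CPM, with the highest level at day 7. CF was thus lower than WT at day 2 and higher on the other 3 days, with log2 differences of -0.26, 0.51, 0.78 and 1.02. The ratio at day 9 was 2.07 (1.96 to 2.18), just past 2-fold. With TMM or DESeq2 scaling it was 0.90 or 0.92 on the log2 scale, just short of 2-fold. From day 2 to day 9 TP63 fell by 1.52 on the log2 scale in WT, to 0.340 (0.326 to 0.356) of its day 2 level, and by 0.24 in CF, to 0.845 (0.810 to 0.882).

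TFAP2A, an AP-2 factor of surface ectoderm, had no steady order between the genotypes. It stood at 26.6, 44.0, 32.0 and 31.4 CPM in the WT libraries, against 36.0, 37.1, 37.9 and 33.0 CPM in the CF libraries. All 4 CF libraries lay within the range of the WT libraries, and the log2 differences of 0.42, -0.24, 0.24 and 0.07 changed sign between days. The value at day 9 turned to -0.05 with TMM and -0.03 with DESeq2 scaling.

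GRHL3, a grainyhead factor that drives barrier formation in the skin and in the umbrella cells of the bladder, stood at 16.6, 14.8, 20.3 and 29.1 CPM in WT and at 31.8, 26.2, 19.0 and 21.4 CPM in CF. The order of the genotypes turned round: CF was higher at day 2 and day 5 (log2 difference 0.90 and 0.79), close to WT at day 7 (-0.09, ratio 0.936 with an interval of 0.854 to 1.02) and lower at day 9 (-0.43). In the annotation table used here GRHL3 overlaps 2 long non-coding RNA entries in position, LOC106004076 and LOC106004077, and the table gives no chromosome, so reads may be shared. Of these, LOC106004076 had 900, 343, 314 and 266 UMIs in the WT libraries and 148, 98, 43 and 43 in the CF libraries, against at least 659 UMIs of GRHL3 in each library, and LOC106004077 had 0 in all 8. No other member overlapped its neighbours in that table.

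ELF3, an ETS factor of simple and surface epithelium, turned round in the same way. In WT it was at 244, 373, 385 and 508 CPM, highest at day 9. In CF it was at 399, 411, 333 and 310 CPM, highest at day 5. CF was above WT at day 2 and day 5 (log2 difference 0.71 and 0.14) and below it at day 7 and day 9 (-0.21 and -0.71). In WT the day 9 level was 2.08 times (2.05 to 2.11) that of day 2, and in CF it was 0.776 times (0.762 to 0.791).

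EHF and KLF5 differed less between the genotypes. EHF, the ETS factor most closely related to ELF3 among the members, stood at 143, 129, 125 and 103 CPM in WT and at 111, 126, 105 and 97.8 CPM in CF. CF was the lower library at each day, by -0.37, -0.03, -0.25 and -0.08 on the log2 scale, and the day 5 value turned to 0.04 with DESeq2 scaling. KLF5, a Krüppel-like factor of proliferating epithelium, stood at 851, 651, 715 and 691 CPM in WT and at 634, 652, 501 and 462 CPM in CF. Its log2 differences were -0.42, 0.00, -0.51 and -0.58, so the genotypes were level at day 5 and CF was lower on the other 3 days. None of these values reached 2-fold.

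SNAI2, also called Slug, represses E-cadherin and other epithelial genes. In WT it stood at 43.2, 59.3, 54.0 and 37.3 CPM, with the lowest level at day 9. In CF it stood at 29.9, 42.1, 66.1 and 59.7 CPM, with the lowest level at day 2. CF was therefore lower than WT at day 2 and day 5 (log2 difference -0.52 and -0.49) and higher at day 7 and day 9 (0.29 and 0.67, the latter a ratio of 1.60 with an interval of 1.52 to 1.69). From day 2 to day 9 SNAI2 in CF went to 2.00 times (1.90 to 2.10) its level, 0.98 on the log2 scale, and in WT to 0.863 times (0.825 to 0.903). The 9 fibroblast genes summed to at most 34.6 CPM in CF and 5.79 CPM in WT, and their part in the SNAI2 level was not tested.

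Counted together, few members reached 2-fold between the genotypes. A level in CF of 2-fold that in WT or more was reached by GATA3 alone among the 8 at day 2, day 5 and day 7, where 4.40%, 2.21% and 4.32% of the 9427 genes were as much higher. At day 9 GATA3 and TP63 passed, 2 of 8 against 3.06% of all genes. No member was at least 2-fold lower at any day, against 3.47%, 3.89%, 2.87% and 3.21% of all genes at day 2, 5, 7 and 9. The median log2 difference of the 8 was 0.08, 0.07, 0.07 and 0.00 at day 2, 5, 7 and 9, and the median over all genes tested was 0.00, -0.05, 0.13 and 0.08. With TMM scaling the median over all genes shifted by -0.20 at day 7 and -0.12 at day 9, and with DESeq2 scaling by -0.16 at day 7.

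**Figure D2:**
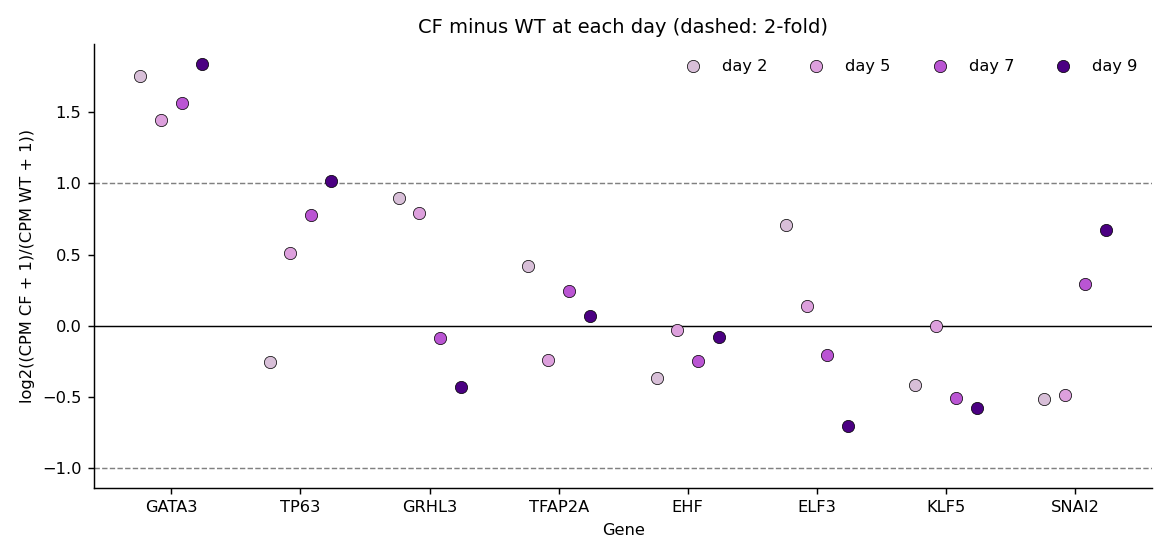
Log2 difference between CF and WT (vertical axis, 1 CPM added to each level) for each factor (horizontal axis) at day 2, 5, 7 and 9, from light to dark, with 1 library on each side of every difference and dashed lines at 2-fold. GATA3 lies between 1.45 and 1.84 at all 4 days, TP63 goes from -0.26 to 1.02 and SNAI2 from -0.52 to 0.67, while GRHL3 goes from 0.90 to -0.43 and ELF3 from 0.71 to -0.71.

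Over time, ELF3 was the only member at least 2-fold higher at day 9 than at day 2 in WT, where 9.01% of all genes were as much higher, and TP63 the only one at least 2-fold lower, against 5.24%. In CF none of the 8 reached 2-fold in either direction, against 6.22% of all genes higher and 2.94% lower. With TMM or DESeq2 scaling ELF3 in WT was at 0.86 or 0.89 and no longer reached 2-fold, and TP63 was at -1.72 or -1.69. SNAI2 in CF was at 0.98, just under the limit, and at 0.71 or 0.75 with these scalings.

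Within each genotype the levels were then followed over the deposited clusters. The deposited clusters had been made apart for each genotype, and 39 WT and 29 CF clusters held at least 50 cells. The clusters were built from the expression of these same cells, so the levels are a description. TP63 and SNAI2 had the widest spans. TP63 went from 0.924 CPM in WT cluster 21 to 146 CPM in WT cluster 38, and from 1.96 CPM in CF cluster 7 to 280 CPM in CF cluster 27. SNAI2 went from 0.610 to 201 CPM over the WT clusters and from 0.780 to 133 CPM over the CF clusters. GRHL3 spanned 0.749 to 49.9 CPM in WT and 2.16 to 74.0 CPM in CF, and was highest in CF cluster 9, where it was among the 10 leading genes. TFAP2A, with 14.8 to 68.2 CPM in WT and 24.3 to 82.3 CPM in CF, and KLF5, with 226 to 1132 CPM in WT and 313 to 903 CPM in CF, varied within narrower limits, as did EHF (40.3 to 207 and 27.1 to 193 CPM). ELF3 spanned 123 to 830 CPM in WT and 70.5 to 792 CPM in CF. CF clusters 13, 21, 23 and 27 and WT clusters 20, 35 and 38 were shallow, with cells of far fewer UMIs than usual for their libraries. The highest TP63 therefore rests on a shallow cluster in both genotypes, with 144 CPM in WT cluster 4 and 209 CPM in CF cluster 16 as the next highest. The same holds for the highest TFAP2A, with 63.0 CPM in WT cluster 27 and 49.0 CPM in CF cluster 11 as the highest of the deeper clusters, and for the highest SNAI2 and ELF3 in CF, with 133 and 688 CPM as the next.

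GRHL3, ELF3 and SNAI2 differed between WT clusters of low and of high TP63, and the other factors overlapped. For this description clusters with TP63 under 10 CPM and clusters with at least 100 CPM were set side by side, limits that were chosen after the values had been seen. In WT 10 clusters lay under 10 CPM, 6 named centroacinar progenitor, 3 centroacinar and 1 ductal. They held 21.7 to 49.9 CPM of GRHL3, 523 to 830 CPM of ELF3 and 0.610 to 4.74 CPM of SNAI2. In the 9 WT clusters with at least 100 CPM of TP63, 7 of them named ductal, GRHL3 was at 4.68 to 10.4 CPM, ELF3 at 136 to 425 CPM and SNAI2 at 29.2 to 82.7 CPM. None of these 3 ranges overlapped between the TP63-low and the TP63-high WT clusters, 3 of the 7 factors besides TP63, by which the clusters were chosen, against 13.2% of the 9427 genes. The other 4 did overlap: GATA3 was at 8.27 to 104 CPM in the TP63-low and 25.1 to 146 CPM in the TP63-high clusters, TFAP2A at 16.2 to 35.7 and 22.5 to 68.2 CPM, EHF at 109 to 174 and 63.2 to 162 CPM, and KLF5 at 731 to 1071 and 385 to 804 CPM.

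In CF 4 clusters lay under 10 CPM of TP63, and they held 30.4 to 44.0 CPM of GRHL3 and 0.780 to 2.15 CPM of SNAI2. In the 11 CF clusters with at least 100 CPM, GRHL3 was at 2.16 to 10.1 CPM and SNAI2 at 48.8 to 132 CPM, again without overlap. EHF did not overlap in CF either, by a narrow margin, with 123 to 193 CPM in the TP63-low and 54.3 to 122 CPM in the TP63-high clusters, which made 3 of the 7 against 20.1% of the 9427 genes. The other 4 did overlap: ELF3 was at 402 to 688 and 104 to 479 CPM, KLF5 at 478 to 903 and 370 to 578 CPM, TFAP2A at 24.3 to 31.4 and 29.5 to 57.2 CPM, and GATA3 at 98.9 to 141 and 101 to 403 CPM. Of the 11 TP63-high CF clusters 10 carried the name centroacinar, against 1 of 9 in WT.

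The share of cells in these clusters moved with the day. TP63-low clusters held 0.691% (0.500 to 0.929) of the WT cells at day 2, then 30.3%, 37.9% and 58.2% (56.9 to 59.5) at day 5, 7 and 9. In CF they held 13.6% (12.6 to 14.7), 12.8%, 11.7% and 26.2% (24.5 to 28.0). The WT share at day 2 rests on the limit. WT cluster 13, with 12.1 CPM of TP63 and 682 of the day 2 cells, lay just above 10 CPM, and CF cluster 4, with 7.84 CPM and 613 day 2 cells, just below. With a limit of 15 CPM, also chosen after seeing the data, the shares were 11.6% (10.9 to 12.5), 30.4%, 38.1% and 58.2% in WT and 13.6%, 13.2%, 17.2% and 35.6% in CF. TP63-high clusters went from 41.9% of the WT cells at day 2 to 16.7% at day 9, and held 39.7%, 46.9%, 56.3% and 42.6% of the CF cells. Many clusters came mostly from 1 library, so that in a cluster the library and the cell state cannot be told apart.

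**Figure D3:**
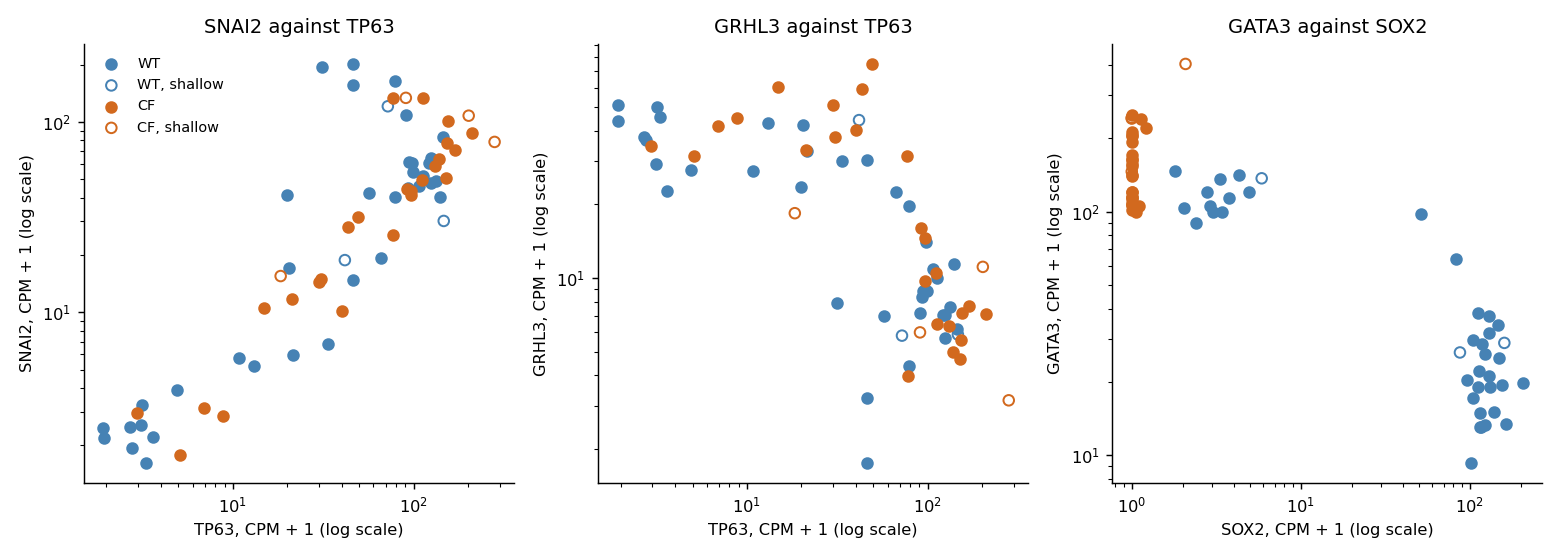
SNAI2 against TP63, GRHL3 against TP63 and GATA3 against SOX2 in the 39 WT (blue) and 29 CF (orange) clusters of at least 50 cells, both axes in CPM plus 1 on a log scale, with open circles for shallow clusters. SNAI2 is high and GRHL3 low where TP63 is high in both genotypes, and GATA3 is at 98.9 CPM or more in every CF cluster, at 88.6 to 146 CPM in the WT clusters with SOX2 under 10 CPM and at 8.27 to 96.8 CPM in the other WT clusters.

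The clusters with the most SNAI2 lay outside the TP63-high group in WT and in part within it in CF. At least 100 CPM of SNAI2 were found in 6 WT clusters (2, 5, 14, 20, 23 and 36) and in 5 CF clusters (3, 5, 11, 13 and 23). In these WT clusters TP63 was at 30.3 to 89.9 CPM, KLF5 at 226 to 474 CPM, EHF at 40.3 to 71.7 CPM and GRHL3 at 0.749 to 6.88 CPM. In these CF clusters, of which 3, 5 and 13 were also TP63-high, TP63 was at 76.4 to 201 CPM, KLF5 at 313 to 488 CPM, EHF at 27.1 to 101 CPM and GRHL3 at 2.96 to 10.1 CPM. The lowest KLF5 and the lowest EHF of each genotype were found here, in WT clusters 23 and 2 and in CF cluster 11. At day 2 these clusters held 0.257% of the WT and 0.645% of the CF cells. By day 9 they held 16.3% (15.3 to 17.3) of the WT and 42.2% (40.3 to 44.2) of the CF cells, while day 5 had 30.9% of the WT and 17.6% of the CF cells. The CF share at day 5 rests on the limit, which was chosen after the values had been seen. CF cluster 5, at 100 CPM of SNAI2 (95.2 to 106), lay on the limit and held 436 of the 485 CF cells counted at day 5. CF clusters 13 and 23 and WT cluster 20 among them were shallow.

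GATA3 differed between clusters of low and of high SOX2. SOX2, a stem cell and foregut factor, was under 10 CPM in 12 WT clusters (0.806 to 4.87 CPM) and in every CF cluster (at most 1.08 CPM), and was between 50.6 and 205 CPM in the other 27 WT clusters, a split known from earlier work on these data. GATA3 was at 88.6 to 146 CPM in the 12 SOX2-low WT clusters. In 26 of the 27 SOX2-high clusters it was below that range, with a median of 20.1 CPM over the 27 and WT cluster 36, at 96.8 CPM, as the exception. In CF it was at 98.9 to 403 CPM with a median of 153 CPM, the highest being the shallow cluster 27 and the next 248 CPM, and none of the SOX2-high WT clusters reached the lowest CF cluster, whereas 10 of the 12 SOX2-low ones did. In 15 of the 29 CF clusters GATA3 was above the highest SOX2-low WT cluster. TFAP2A showed a weaker form of this order, with 21 of the 27 SOX2-high clusters below the lowest SOX2-low one (35.7 CPM). The share of all genes that part these clusters in the same way was not counted, so how usual such an order is remains unknown.

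Summed by library, the SOX2-low WT cells had GATA3 at 104, 111, 134 and 122 CPM at day 2, 5, 7 and 9. The SOX2-high WT cells had 22.4, 22.1, 26.6 and 23.9 CPM, so the 2 kinds of WT cells did not overlap. The SOX2-low cells were above the SOX2-high cells without overlap for GATA3 and TFAP2A, 2 of the 8, and for 10.0% of the 9427 genes. Against the SOX2-low WT cells, GATA3 in CF differed by 0.13, 0.64, 0.51 and 0.67 on the log2 scale and reached 2-fold at none of the 4 days. TP63 in the SOX2-low WT cells was 109, 103, 110 and 73.9 CPM, above CF at each day (CF minus these cells -0.60, -0.29, -0.12 and -0.28), and in the SOX2-high cells it went from 83.0 CPM at day 2 to 20.9, 31.7 and 9.94 CPM. SNAI2 was lower in the SOX2-low than in the SOX2-high WT cells at each day, with 31.5 against 44.9, 41.3 against 74.6, 40.2 against 61.3 and 31.5 against 39.8 CPM. SOX2-low cells made up 14.3%, 33.8%, 27.5% and 27.9% of the WT cells at day 2, 5, 7 and 9. Whether they came from particular donors was not tested.

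Over the clusters TP63 and SNAI2 went together, and GRHL3, EHF, ELF3 and KLF5 with each other. All clusters of a genotype share its 4 libraries, and the correlations of log2(CPM + 1) over them are descriptions. TP63 with SNAI2 had a Pearson r of 0.86 over the 39 WT and 0.93 over the 29 CF clusters. GRHL3 went against both, with r of -0.73 and -0.74 for TP63 and -0.87 and -0.76 for SNAI2. GRHL3, EHF, ELF3 and KLF5 went together in both genotypes, with r from 0.42 (ELF3 with KLF5) to 0.87 (EHF with KLF5) in WT and from 0.55 (GRHL3 with EHF) to 0.84 (EHF with ELF3) in CF. The place of GATA3 differed in size between the genotypes: with TFAP2A its r was 0.82 in WT and 0.55 in CF, and with TP63 0.59 and 0.39. Without the shallow clusters the CF values for GATA3 were 0.30 with TFAP2A and 0.24 with TP63, over 25 clusters.

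**Figure D4:**
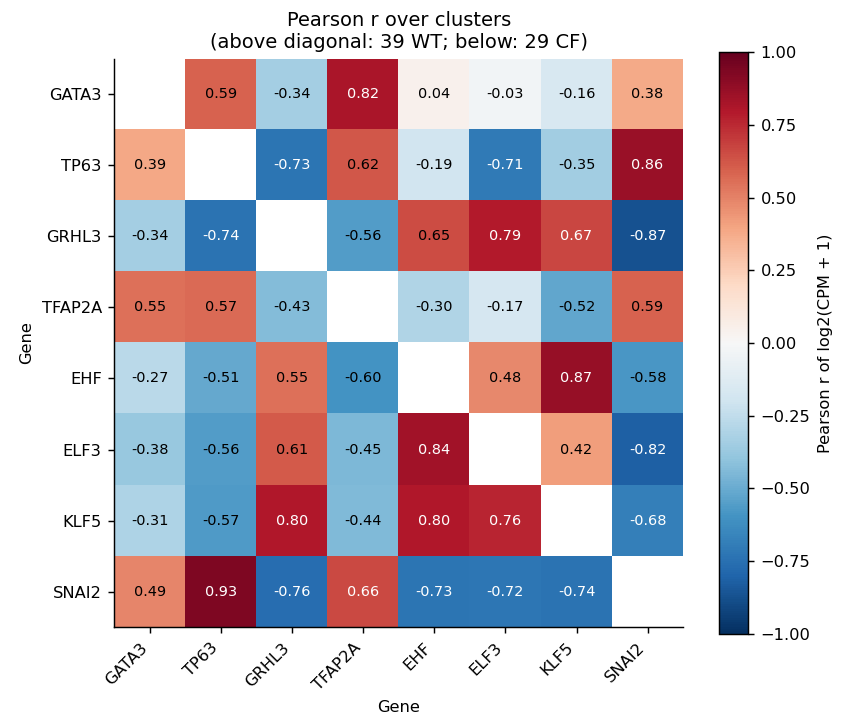
Pearson r of log2(CPM + 1) between each pair of factors over the 39 WT clusters (above the diagonal) and over the 29 CF clusters (below it), from -1 in blue to 1 in red. TP63 with SNAI2 is at 0.86 in WT and 0.93 in CF, SNAI2 with GRHL3 at -0.87 and -0.76, and EHF with KLF5 at 0.87 and 0.80.

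The genes whose pattern over clusters was most like that of a member were ranked by Pearson r among 10653 genes in WT and 10516 in CF. For SNAI2 the closest gene was PDPN, which codes for the membrane glycoprotein podoplanin, in both genotypes (r of 0.98 and 0.97). It was followed in WT by the basal keratin KRT5 and by VSNL1 (both 0.96), and in CF by TMEM108 and TGFB1 (both 0.96), the latter a growth factor gene. For TP63 they were TNS4, INKA1 and LOC101681572 in WT (0.97, 0.97 and 0.96) and ST3GAL2, LFNG, which encodes a Notch-modifying enzyme, and BCO2 in CF (0.97, 0.97 and 0.96). For GATA3 they were CKB, MEIS2 and B3GALT2 in WT (all 0.93) and ZFP36L1, ROS1 and ZNF146 in CF (0.93, 0.91 and 0.91), and for TFAP2A they were CCDC50, RDX and CASTOR2 in WT (0.94, 0.92 and 0.91) and GPSM1, INPP5E and ATXN7L2 in CF (0.88, 0.87 and 0.86).

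For the surface factors, GRHL3 was closest to PRR15L, the membrane mucin gene MUC1 and PLCH1 in WT (0.93, 0.92 and 0.92) and to PXYLP1, LOC101682302 and TM4SF5 in CF (0.96, 0.93 and 0.93). ELF3 was closest to VPS37B, SLC44A4 and CHKA in WT (0.94, 0.93 and 0.93) and to the tight junction gene TJP3, LGALS9 and NT5DC3 in CF (all 0.91). EHF was closest to SLC16A3, a lactate transporter gene, DEPP1 and KLF5 in WT (0.90, 0.88 and 0.87) and to NR2F6, HYAL1 and TMEM243 in CF (0.95, 0.92 and 0.90). KLF5 was closest to SLC16A3, DUSP5 and TSPAN1 in WT (0.93, 0.89 and 0.89) and to AGPAT1, SGPP2 and IL1R1 in CF (0.91, 0.90 and 0.89). Apart from PDPN for SNAI2, no gene was among the 3 closest to the same member in both genotypes.

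Within the classes that the authors had named, the day 9 libraries had the most members past 2-fold in the cells called centroacinar, among the 2 classes in which they were counted. Of 71 clusters 13 were set aside here, 7 for shallow cells and 6 because markers of a different class outnumbered those of their own class among their leading genes, and values are given for the other 58. Among the centroacinar cells at day 9 (1643 CF and 2192 WT cells) GATA3 was at 196 CPM in CF and 33.9 CPM in WT, a log2 difference of 2.50. TP63 was at 70.7 and 9.19 CPM (2.81), and SNAI2 at 72.7 and 10.3 CPM (2.71). GRHL3 was at 15.1 and 41.3 CPM (-1.39), ELF3 at 227 and 590 CPM (-1.37), and KLF5 at 402 and 814 CPM (-1.01). GATA3, TP63 and SNAI2 were thus at least 2-fold higher, 3 of 8 against 9.22% of all genes, and GRHL3, ELF3 and KLF5 at least 2-fold lower, 3 of 8 against 6.0%.

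Different clusters made up this class in the 2 genotypes. WT clusters 3, 7 and 16 held 965, 458 and 443 of the WT cells, with TP63 at 2.16, 1.71 and 2.29 CPM. All of these were SOX2-high, with SOX2 at 130, 129 and 162 CPM, while every CF cluster was SOX2-low. CF clusters 3, 7 and 11 held 521, 473 and 266 of the CF cells, with TP63 at 112, 1.96 and 76.4 CPM, so the CF clusters of this class held both low and high TP63 where the main WT clusters were all low. None of the clusters named here carried a marker of this class among its 10 leading genes. Those of CF cluster 11 included ACTA2, COL1A1, COL1A2, TAGLN and FN1, genes of contractile and matrix proteins. Without this cluster, an alternative chosen after seeing the data, 1377 CF cells were left at day 9, and the log2 differences were 2.54 for GATA3, 2.83 for TP63, 2.46 for SNAI2, -1.19 for GRHL3, -1.20 for ELF3 and -0.94 for KLF5, which then fell short of 2-fold. The markers behind the centroacinar name did not go one way at day 9: PROM1 stood at 343 CPM in the WT and 7.76 CPM in the CF library and S100A4 at 286 and 22.7 CPM, while KRT7 stood at 2493 and 3595 CPM, WSB1 at 84.4 and 142 CPM, and S100A6 at 46216 and 43724 CPM.

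**Figure D5:**
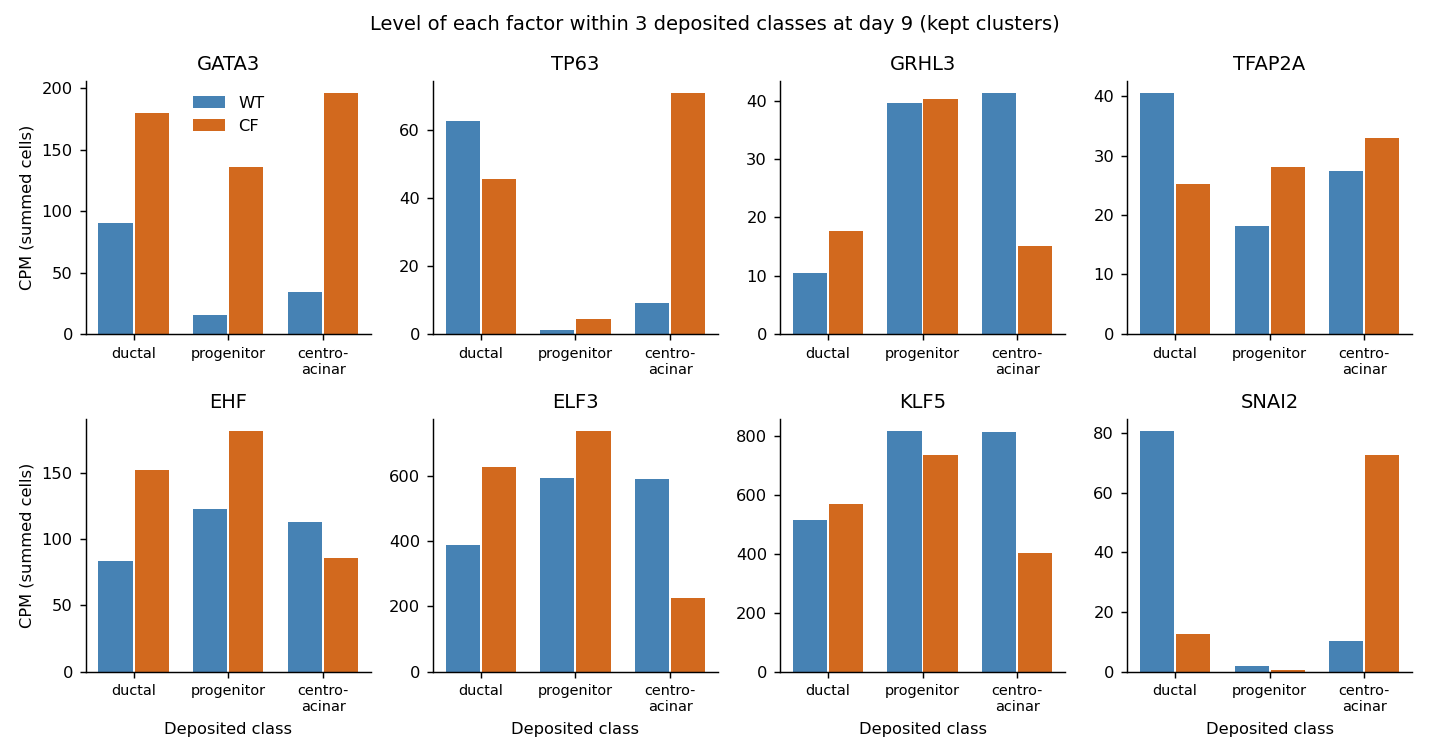
Level of each factor in CPM (bars from 0) in the ductal, centroacinar progenitor and centroacinar cells of the WT (blue) and CF (orange) libraries at day 9, without the 13 clusters that were set aside and with no error bars, since each bar is 1 library. In centroacinar cells TP63 is at 70.7 CPM in CF and 9.19 CPM in WT and ELF3 at 227 and 590 CPM, while in ductal cells SNAI2 is at 12.6 CPM in CF and 80.8 CPM in WT.

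Centroacinar progenitors were more alike. At day 9 (180 CF cells, mostly of cluster 18, and 769 WT cells, mostly of cluster 21) GRHL3 was at 40.3 CPM in CF and 39.6 CPM in WT, a ratio of 1.02 (0.847 to 1.21), and KLF5 at 735 and 817 CPM. SNAI2 was under 2 CPM in both. GATA3 was at 136 and 15.3 CPM, a log2 difference of 3.07, and TP63 at 4.31 and 1.09 CPM (1.35), which made 2 of 8 members at least 2-fold higher against 6.61% of all genes, and none lower against 5.46%. The difference in GATA3 was of this size at the other days too, with 2.55, 3.13 and 3.32 at day 2, 5 and 7. That in TP63 was not steady, with -0.60, 2.23 and 0.08 at day 2, 5 and 7. Its day 9 value rests on low levels, with a ratio of 3.95 (1.83 to 8.77). Every WT progenitor cluster was SOX2-high (71.0 to 138 CPM of SOX2) and every CF one SOX2-low, so this class sets SOX2-low CF cells against SOX2-high WT cells. Against the SOX2-low WT cells of all classes GATA3 in CF differed by 0.13, 0.64, 0.51 and 0.67 at day 2, 5, 7 and 9.

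Among the ductal cells GATA3 was again higher in CF at all 4 days, with log2 differences of 1.49, 0.94, 0.94 and 0.98. SNAI2 in these cells was lower in CF, with 35.9 against 46.9, 22.8 against 91.3, 18.7 against 89.2 and 12.6 against 80.8 CPM at day 2, 5, 7 and 9, the opposite of its order over whole libraries at day 7 and day 9. The clusters with at least 100 CPM of SNAI2 carried different class names, ductal for 5 of 6 in WT and centroacinar for 5 of 5 in CF, so unlike clusters were compared here. TP63 was also lower in CF at each day (-0.14, -0.72, -1.02 and -0.45), and ELF3 was higher (0.81, 0.95, 0.88 and 0.69). GRHL3 was higher in CF at each day too, with 0.57, 2.26, 1.45 and 0.69. The CF values rest on few cells late in the course, 88 at day 7 and 51 at day 9, against 2232 and 2001 WT cells. With every cluster under its deposited name there were 284 CF ductal cells at day 9, and the differences were -1.56 for TP63, -2.79 for SNAI2 and 2.14 for GRHL3, which was at 0.69 in the kept clusters. Only in the proliferating cells with an acinar name at day 2 could another class be compared: GATA3 was at 99.2 CPM in CF and 18.1 CPM in WT, and TP63 at 90.5 and 93.8 CPM. The WT clusters of this name, 25 and 28, were SOX2-high (153 and 205 CPM), so SOX2-low CF cells were set against SOX2-high WT cells here too. In the SOX2-low WT cluster 27, which carried the proliferating ductal name, GATA3 was at 119 CPM.

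Genes linked to the members, and genes of duct and squamous cells, were taken as lists. These lists were chosen with earlier results of these data known, so their counts beside those of all genes are a description. Of 28 other epithelial and mesenchymal transition factors 17 had a mean of at least 5 CPM. At day 2 only FOXA2, a forkhead factor of gut endoderm, reached 2-fold, higher in CF, and at day 9 KLF4 and GRHL1 were lower there by 2-fold or more. No other of the 17 reached 2-fold at any day, against the shares of all genes given above. KLF4, a Krüppel-like factor of differentiating surface cells, stood at 54.5, 37.0, 44.8 and 52.6 CPM in WT and at 29.4, 19.7, 22.9 and 15.8 CPM in CF, lower at each day. FOXA2 stood at 8.60, 12.1, 10.7 and 10.9 CPM in WT and at 26.1, 13.4, 18.6 and 17.7 CPM in CF, higher at each day. GRHL1, the paralogue of GRHL3, was lower in CF by -0.66, -0.22, -0.50 and -1.09, and SOX15 was higher by 0.36, 0.59, 0.21 and 0.96.

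Of 22 genes linked to TP63 in basal cells 17 were used. At day 2, 5, 7 and 9, 2, 2, 5 and 2 of them were higher in CF by 2-fold or more, against 4.40%, 2.21%, 4.32% and 3.06% of all genes, and 2, 3, 2 and 2 were lower, against 3.47%, 3.89%, 2.87% and 3.21%. The median log2 difference went from 0.19 at day 2 and -0.20 at day 5 to 0.68 and 0.53 at day 7 and day 9. The list did not move as a block: the desmosomal cadherin DSC3 was higher in CF by 1.57, 2.01, 2.07 and 1.57 and the receptor FGFR3 by 2.25, 1.07, 1.32 and 0.53, while the keratin KRT15 was lower by -2.84, -1.38, -2.78 and -2.78 and the cadherin DSG3 by -3.24, -1.91, -1.51 and -1.78. Over clusters the median r of these genes with TP63 was 0.67 in WT and 0.69 in CF, against 0.15 and 0.18 over all genes. CDH3 and ITGA6 (0.96 and 0.95) led in WT and JAG2 and KRT5 (0.95 and 0.94) in CF, and DSC3 was at the other end in WT (-0.30).

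Of 19 barrier genes linked to grainyhead factors 16 were used, and at most 1 of them reached 2-fold at any day in either direction, NECTIN4 at day 5 (-1.29) and ARHGEF19 at day 7 (1.17), where 3.89% of all genes were as much lower and 4.32% as much higher. ARHGEF19 passed the filter on low levels only through CF. E-cadherin (CDH1), which SNAI2 is known to repress, stood at 244, 362, 358 and 508 CPM in WT and at 452, 478, 520 and 524 CPM in CF, above WT at each day. At day 9 the CDH1 difference was only 0.05 on the log2 scale, less than the shift of the median over all genes with TMM scaling (-0.12). CLDN4, a claudin of tight junctions, was at 0.15, -0.21, -0.60 and -0.92. From day 2 to day 9, 5 of the 16 were at least 2-fold higher and none lower in WT, against 9.01% and 5.24% of all genes, and in CF 3 were higher and 1 lower, against 6.22% and 2.94%. The median r with GRHL3 over clusters was 0.52 in WT and 0.43 in CF, against -0.17 and -0.27 over all genes, with OVOL1 (0.80) and CDH1 (0.76) at the top.

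Of 16 urothelial and luminal genes linked to GATA3 and PPARG 12 were used. In CF 1, 5, 4 and 5 of them were at least 2-fold higher at day 2, 5, 7 and 9, against 4.40%, 2.21%, 4.32% and 3.06% of all genes, and none lower. TBX3 and SPINK1 passed the filter on low levels only through CF, where they are high, and among the 10 genes with a mean of at least 5 CPM in each genotype, a filter chosen after seeing the data, 0, 3, 2 and 3 were higher, against 3.80%, 1.51%, 3.48% and 2.27% of the 8978 such genes. The list holds 2 of the members, ELF3 and GRHL3. The uroplakin UPK3A stood at 6.66, 5.29, 5.77 and 7.96 CPM in WT and at 8.19, 50.3, 59.7 and 57.7 CPM in CF, a clear step from day 5 on. SPINK1, a trypsin inhibitor gene, went from 0.889 to 261 CPM in CF and from 0.00873 to 2.75 CPM in WT. By the mean over the 4 days UPK3B and XBP1 were the lowest of the list, with differences of -0.24, 0.29, -0.01 and -0.29 for UPK3B and of -0.18 to -0.52 for XBP1. In each genotype 13 genes of the list reached 10 CPM in at least 1 cluster, and over the clusters they did not follow GATA3 as a list, with a median r of -0.03 in WT and 0.13 in CF, against 0.08 and 0.25 over all genes. PPARG (0.76) and UPK3A (0.64) were highest in WT, TBX3 (0.79) and PPARG (0.56) in CF, and UPK3B lowest in both (-0.65 and -0.58).

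The mesenchymal genes linked to SNAI2 differed with the day. Of 16 such genes 7 were used, and at day 2, 5, 7 and 9 the CF level was higher by 2-fold or more for 4, 0, 4 and 4 of these, against 4.40%, 2.21%, 4.32% and 3.06% of all genes, with 4 lower at day 5, against 3.89%. Vimentin (VIM) stood at 13.9, 42.3, 39.0 and 52.9 CPM in WT and at 14.8, 35.7, 232 and 261 CPM in CF. SPARC, a matrix protein gene, stood at 1.54, 159, 124 and 166 CPM in WT and at 7.64, 95.5, 787 and 922 CPM in CF. Both were lower in CF at day 5 and higher at day 7 and day 9. ITGA5, an integrin subunit gene, was at 0.45, -1.31, 0.40 and 0.36 and differed by less than 2-fold at day 2, day 7 and day 9. Over clusters the median r of the list with SNAI2 was 0.52 in WT (7 genes) and 0.54 in CF (13 genes), against 0.17 and 0.20 over all genes. Of the fibroblast genes, PDGFRA went apart from the others over the CF clusters. COL1A1, a collagen gene, stood at 4.49, 0.0839, 18.9 and 13.2 CPM in the CF libraries and at no more than 0.652 CPM in WT. In CF it fell from day 2 to day 5, when VIM and SPARC rose. PDGFRA, of the same fibroblast list, was lower in CF at each day (-1.09, -0.85, -0.84 and -1.21) and highest in CF cluster 19 (5.83 CPM). In WT it stood at 2.29, 3.33, 4.62 and 5.51 CPM, most of the sum of that list. All other genes of the list were highest in CF cluster 11, among them COL1A2 (53.9 CPM), COL3A1 (22.6 CPM) and RGS5 (9.56 CPM). None of them passed 0.652 CPM in a WT library. Over the CF clusters VIM (927 CPM), SPARC (2895 CPM), COL1A1 (140 CPM) and THY1 (17.5 CPM) were all highest in CF cluster 11, which had 128 cells at day 7 and 266 at day 9. The part of the fibroblast genes in the mesenchymal list was not tested.

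Of 18 genes of squamous differentiation only 5 had a mean of at least 5 CPM, and TGM3 was at 0 in every library. LY6D was higher in CF by 3.88, 3.93, 4.01 and 3.61, and KRT10 by 0.63, 0.49, 0.67 and 1.04. KRT4 was lower by -0.64, -0.45, -2.93 and -3.63 and SCEL by -1.53, -1.53, -1.52 and -2.08. SCEL, which codes for a protein of the cornified envelope, went against TP63 over clusters (r of -0.86 in WT and -0.78 in CF) and with GRHL3 (0.64 and 0.62).

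Of 15 duct genes 13 were used, with 0, 0, 1 and 1 at least 2-fold higher and 2, 3, 1 and 3 lower in CF at day 2, 5, 7 and 9, against 2.21% to 4.40% of all genes higher and 2.87% to 3.89% lower. The list holds CFTR, the targeted gene, which was among those counted lower at day 2 (-1.11) and day 9 (-1.30). The simple keratin KRT7 was at 1145, 2771, 2216 and 2493 CPM in WT and at 2133, 2752, 3471 and 3595 CPM in CF. By the mean over the 4 days PROM1 was the lowest of the list (-4.51, -3.65, -4.55 and -5.29) and SPP1, at 0.22, -1.74, 3.68 and 3.51, the highest. With KLF5 over clusters, TSPAN8 was at 0.86 in WT and 0.83 in CF and SPP1 at -0.80 and -0.65. With ELF3, MUC1 was at 0.84 in both genotypes.

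The difference in GATA3 was also seen as a share of cells. With each cell thinned to 3000 UMIs, a GATA3 UMI was found in 8.76% (8.06 to 9.49), 13.1%, 13.3% and 12.1% of the WT cells at day 2, 5, 7 and 9 and in 27.3% (26.0 to 28.6), 39.3%, 44.9% and 43.1% (41.1 to 45.2) of the CF cells. Without thinning these shares were 34.2% to 43.6% in WT and 74.8% to 91.8% in CF. The CF cells without thinning were the deeper ones, with a median of 17833 to 23427 UMIs against 14949 to 16862 in WT. A TP63 UMI was found after thinning in 21.9%, 13.3%, 12.9% and 6.84% of the WT cells against 21.0%, 21.9%, 26.2% and 17.7% of the CF cells. The CF share was the higher at day 5, 7 and 9, as in CPM. At day 2 the intervals overlapped (20.8 to 22.9 in WT and 19.8 to 22.3 in CF). Without thinning the TP63 shares at day 2 were 61.9% in WT and 64.6% in CF. Thinning left out 411 of the 1607 CF cells at day 7 and between 39 and 224 cells of each other library. No cell type known to lack these factors was at hand, so the share that free RNA alone would give was not measured. The lowest TP63 level of a cluster was 0.924 CPM in WT (cluster 21) and 1.96 CPM in CF (cluster 7). For GATA3 the lowest was 8.27 CPM in WT (cluster 18) and 98.9 CPM in CF (cluster 4).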

How the data were processed

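Pancreatic ductal epithelial cells in 8 10x libraries were measured as whole-number UMI counts, which the authors had made by aligning reads to ASM1176430v1.1, a ferret assembly with an improved annotation, in Cell Ranger 5.0.1, and deposited as matrices of 27912 genes by 44243 barcodes. In Seurat the authors had dropped cells under 200 genes or over 20 percent of mitochondrial reads, removed doublets, and deposited a table with the cluster number, class name and percent of mitochondrial reads of 32945 cells. Doublets were therefore not called again. Deposited normalized counts and lineage scores were not used.

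UMIs of retained cells were summed by library, class and cluster and scaled to CPM. Differences are log2 ratios of CPM + 1, called at 2-fold among genes with a mean of at least 5 CPM, a scale that understates changes of genes near 1 CPM. Intervals are exact Poisson (a level), exact conditional binomial (a ratio) or Clopper-Pearson (a share), at 95%. With 1 library in a group no test was run. Alternatives were TMM factors (edgeR 4.0.16), DESeq2 1.42.0 size factors (R 4.3.3), pseudocounts, filters, barcodes and weights of cells. Python 3.11.15, scipy 1.17.1 and numpy 2.4.6 were used. Leading genes of a cluster were the 10 genes of at least 10 CPM with the highest fold against all further cells of that genotype. Class markers were those of the study, chosen there on the same libraries.

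Named genes were all 8 members, the 3 genes most like each member over the WT and over the CF clusters, and up to 4 genes of each list, those with the 2 highest and 2 lowest mean differences, of which 1 is not reported here. Other genes were named as partners in a correlation, as controls, or after their values had been seen. The members, lists, class rule and SOX2 limit were chosen with earlier results of these data known. Gene positions came from RefSeq for the same assembly.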

Additional observations from a re-analysis of the deposited data

Results flagged for a closer look

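For 5 of the members the CF and WT libraries differed in opposite directions on different days, which was not tested, since each difference rests on 1 library a side. On the log2 scale, TP63 was at -0.26 at day 2 and 1.02 at day 9, and SNAI2 at -0.52 at day 2 and 0.67 at day 9. GRHL3 was at 0.90 at day 2 and -0.43 at day 9, and ELF3 at 0.71 at day 2 and -0.71 at day 9. TFAP2A was at 0.42 at day 2 and -0.24 at day 5.

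For 4 of them the step from day 2 to day 9 also went in opposite directions in the 2 genotypes, again untested. GRHL3 was at 0.77 in WT and -0.55 in CF, ELF3 at 1.05 in WT and -0.36 in CF, TFAP2A at 0.23 in WT and -0.12 in CF, and SNAI2 at -0.21 in WT and 0.98 in CF. With the mean over cells TFAP2A in CF was at 0.11, and its opposite directions were lost.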

How the results depend on the processing

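Counts of members past 2-fold moved with some choices. At day 9, 1 member instead of 2 was at least 2-fold higher in CF with TMM factors, with DESeq2 size factors, with a pseudocount of 5 CPM, with equal weight for each class and, chosen after seeing the data, without the shallow clusters, since TP63 lay close to the limit. With the mean over cells, 2 instead of 1 were higher at day 7. Over time, ELF3 no longer passed in WT (0 instead of 1) with TMM factors, DESeq2 size factors or the mean over cells, and 1 instead of 0 passed in CF with the mean over cells.

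In ductal cells only, 2 members were higher at day 2 and day 7, and 1, 2 and 2 were lower at day 5, 7 and 9, where 3.98% to 7.72% of all genes were higher and 3.39% to 15.2% lower. At day 5 GRHL3 took the place of GATA3 (0.98). At day 9 the 2 higher were GATA3 (1.13) and GRHL3 (2.14), and TP63 was reversed, at -1.56. Against the SOX2-low WT cells only, GRHL3 (1.07 and 1.65) took the place of GATA3 at day 2 and day 5, and 0 members were higher at day 7 and day 9. Of all genes 2.39%, 4.47%, 6.07% and 2.42% were higher in this comparison at day 2, 5, 7 and 9. GRHL3 at day 9 turned to 0.32 and TP63 at day 9 was at -0.28, also reversed. Of 32 differences, 16 changed sign in ductal cells only, 10 against SOX2-low WT cells, 8 with equal class weight and at most 2 under each of the other alternatives. The cause was not tested. Under each of the 11 alternatives GATA3 had the higher level in CF on all 4 days.

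No paired analysis was possible because each genotype and day had 1 library, and the 4 days are different conditions and not replicates of a genotype. With 1 library a group, depth limits only the counting error, and variation between donors or cultures was not measured.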
